A study of Mus musculus with 32 samples.

Results

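The G1 cyclins, cyclin-dependent kinases (CDKs) and CDK inhibitors were followed in the RNA-seq data of cultured mouse cortical neurons exposed to extracellular oligoribonucleotides. The 10 genes were chosen by name and role, with earlier results of these data known, out of 49671 genes in the count table. They comprise the D-type cyclins Ccnd1, Ccnd2 and Ccnd3, the kinases Cdk4, Cdk6 and Cdk2, the Cip/Kip inhibitors Cdkn1a, Cdkn1b and Cdkn1c, and the INK4 inhibitor Cdkn2c. Wild-type (WT) C57BL/6 neurons came from the forebrain of embryos at embryonic day 17 to 18. Untreated cultures received no oligoribonucleotide, and the others were kept for 6 h or for 5 d with miR-92a-1-5p, with miR-124-5p, or with Mut.oligo, each at 10 µg/mL. All 3 were synthetic RNAs with phosphorothioate bonds, and Mut.oligo, a mutated form of the miRNA let-7b, served as the control oligoribonucleotide. Each of the 8 groups held 4 biological replicates, 32 libraries in all. The 4 untreated libraries of a time point were the reference for all 3 oligoribonucleotides, so these comparisons share their controls.

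In dividing cells, D-type cyclins pair with CDK4 and CDK6, and these complexes phosphorylate the retinoblastoma protein, which releases E2F transcription factors. E2F then drives genes of DNA replication, and CDK2 continues the phosphorylation together with E-type cyclins. The INK4 proteins bind CDK4 and CDK6 directly, whereas the Cip/Kip proteins bind cyclin-CDK complexes, CDK2 complexes in particular. Neurons are postmitotic and keep this pathway largely silent, while progenitors and glial cells that remain in a primary culture can divide.

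The mature sequence of miR-92a-1-5p, the oligoribonucleotide for which the most members were called at 5 d, is shown from RefSeq (GRCm38.p6, chr14:115044437-115044459, plus strand, Mir92-1) with its seed, bases 2 to 8, in capitals.

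miR-92a-1-5p: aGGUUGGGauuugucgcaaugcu

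Libraries held 24514090 to 73626029 counts, and every gene of the group had at least 115 counts in each library, so that all 10 passed the filter on low counts at both time points. The labels name 13 experiment batches, 7 at 6 h and 6 at 5 d. Of the miR-92a-1-5p libraries, 4 at 6 h and 2 at 5 d share a batch with an untreated library. The numbers are 2 and 2 for miR-124-5p, and 2 and 3 for Mut.oligo. Levels are given as CPM, which are counts scaled to a common library size (TMM scaling over all 32 libraries), and fold changes as log2 values from edgeR, positive when the treated group was higher. A gene was called at a Benjamini-Hochberg adjusted p under 0.05 together with a log2 fold change beyond 0.5 in either direction. In these bulk libraries, fewer cells of a type and less RNA per cell cannot be told apart.

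In untreated neurons, Cdk4 was the most abundant member per length of exon, at 68.1 ± 3.81 CPM per kb after 6 h (mean ± SD, n = 4 for all such values). Cdkn1b, which encodes the inhibitor p27, followed at 32.3 ± 2.09 CPM per kb, and Ccnd2 at 20.7 ± 4.22 CPM per kb. Cdkn1a, which encodes p21, stood at 13.4 ± 0.620 and Cdkn1c, which encodes p57, at 7.50 ± 1.04 CPM per kb. Ccnd1 with 4.28 ± 1.31, Cdkn2c with 3.62 ± 0.922 and Ccnd3 with 2.89 ± 0.286 CPM per kb formed the next group, in which neighbours differed by less than the sum of their SDs. Cdk2 with 1.32 ± 0.457 and Cdk6 with 1.07 ± 0.313 CPM per kb were the lowest and were not separated either.

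The order changed by 5 d in untreated cultures, with Ccnd1 higher and Cdk4 lower than at 6 h. Cdk4, Cdkn1b and Ccnd2 then lay at 31.1 ± 1.37, 30.2 ± 1.19 and 28.3 ± 1.61 CPM per kb, values that were not separated beyond their SDs. Cdkn1a stood at 20.7 ± 0.802 and Ccnd1 at 8.24 ± 0.247 CPM per kb, each apart from its neighbours. Among the D-type cyclins, Ccnd1 made up 15.1 ± 1.51% of the reads per kb at 6 h and 21.1 ± 0.786% at 5 d. Ccnd2 remained the main D-type cyclin, with 74.3 ± 1.09% and 72.3 ± 0.547%.

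**Figure D1:**
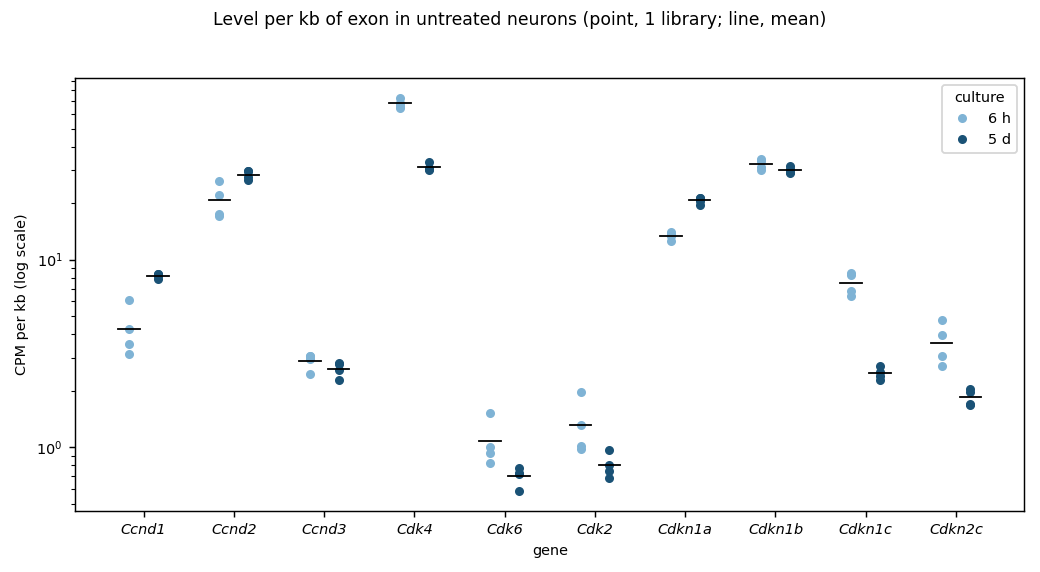
Level of the 10 genes in untreated cortical neurons, as CPM per kb of exon on a log axis, with 1 point per library (4 at 6 h, light; 4 at 5 d, dark) and a line at the mean. Ccnd1 and Cdkn1a lie higher at 5 d, while Cdk4, Cdk6, Cdk2, Cdkn1c and Cdkn2c lie lower.

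Comparing untreated neurons at 5 d to those at 6 h, 7 of the 10 genes passed the threshold, 2 higher and 5 lower. Among all 20425 genes tested, 19.1% were called higher and 14.3% lower. Ccnd1 was higher by 0.94 ± 0.169 on the log2 scale (SE, adjusted p = 2.32e-05), and Cdkn1a by 0.62 ± 0.0731 (adjusted p = 2.3e-08). Cdkn1c had the steepest decrease, with a log2 change of -1.60 ± 0.157 (adjusted p = 8.32e-10), from 13.1 to 17.3 CPM at 6 h down to 4.64 to 5.51 CPM at 5 d. Cdk4 changed by -1.13 ± 0.0830 (adjusted p = 1.89e-12) and Cdkn2c by -0.97 ± 0.239 (adjusted p = 0.00103). Cdk2 and Cdk6 changed by -0.72 ± 0.223 and -0.61 ± 0.225, with adjusted p-values of 0.00721 and 0.0220. Without replicate 2 of every group, their values were -0.39 and -0.31 and no longer passed (adjusted p = 0.159 and 0.307). Ccnd2 was higher by 0.45 ± 0.150 (adjusted p = 0.0116), which lies under the fold limit; it was called without replicate 2 (0.60) and without replicate 4 (0.51). Ccnd3 and Cdkn1b differed by -0.14 and -0.10, with adjusted p-values of 0.232 and 0.187. The time points have no experiment batch in common, so that time in culture and batch cannot be told apart.

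Exposure for 6 h was followed by no called change in any of the 10 genes. With edgeR and no covariate, 0 members were called for each of the 3 oligoribonucleotides. In each of these comparisons, 0% of the 18755 genes tested were called lower. At an unadjusted p under 0.05, 1 member was lower after miR-92a-1-5p exposure and 0 after miR-124-5p or Mut.oligo, where 4.75%, 4.54% and 9.49% of all genes had such a p in either direction. When the batch was a covariate, the counts were 2 (Cdkn1a and Ccnd3), 2 (Ccnd1 and Ccnd2) and 2 (Ccnd3 and Cdkn1b), all lower, beside 13.4%, 5.79% and 8.47% of all genes. DESeq2 also called 0 members, with or without the batch. Over all genes tested, small adjusted p-values did occur at 6 h. After miR-92a-1-5p, the smallest was 0.0139 in DESeq2, 0.00198 in edgeR with the batch and 1.61e-14 in DESeq2 with the batch. After miR-124-5p, it was 0.425, 0.697 and 0.0307 in the same order, and after Mut.oligo 0.000143, 0.00123 and 4.20e-08. The share of genes called in these fits was not counted. The 1 member that had an unadjusted p under 0.05 in edgeR without a covariate was Cdkn1a, a target of p53. It encodes a broad inhibitor of cyclin-CDK complexes. Untreated libraries held 47.6, 49.8, 48.9 and 44.8 CPM of Cdkn1a, compared to 44.0, 38.7, 37.9 and 47.1 CPM in those of miR-92a-1-5p. The ranges of the groups overlapped, and the log2 fold change was -0.19 ± 0.0832 (unadjusted p = 0.0387, adjusted p = 0.999). In the 4 batches that hold both groups, Cdkn1a was lower in 4 of 4, with differences of log2 CPM between -0.30 and -0.09, and so were Ccnd3 and Cdkn2c. When the batch was a covariate, the log2 fold change of Cdkn1a was -0.19 ± 0.0644 (adjusted p = 0.194). After Mut.oligo, Cdkn1a had a log2 fold change of -0.17 ± 0.0842 without a covariate (edgeR, unadjusted p = 0.0659). It differed by -0.02 between miR-92a-1-5p and Mut.oligo (unadjusted p = 0.804).

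Over the 10 genes, the log2 fold changes at 6 h lay between -0.22 (Ccnd1) and 0.0087 (Cdk4) for miR-92a-1-5p, between -0.31 (Cdkn2c) and 0.021 (Cdkn1c) for miR-124-5p, and between -0.24 (Ccnd1) and -0.04 (Cdk4) for Mut.oligo. The spread between libraries was wide at 6 h for a set of members that varied together. Ccnd1 held 16.8, 28.8, 14.8 and 20.2 CPM in untreated replicates 1 to 4, and Cdk6 held 13.1, 21.4, 11.5 and 14.1 CPM. Untreated replicate 2 was the highest of its group for Ccnd1, Ccnd2, Cdk6, Cdk2 and Cdkn2c, and also for Cdk4, Cdkn1a and Cdkn1b. Over the 16 libraries of 6 h, the 10 pairs among Ccnd1, Ccnd2, Cdk6, Cdk2 and Cdkn2c had Pearson correlations of log2 CPM between 0.866 and 0.957. Cdkn1c ran the other way, with correlations of -0.77 to -0.85 to the same 5 genes. These libraries share batches and differ in depth, and the correlations are given as a description. The number of members with a negative log2 fold change at 6 h was 9, 9 and 10 of 10 for miR-92a-1-5p, for miR-124-5p and for Mut.oligo, and 3, 6 and 6 of 10 without replicate 2 of every group, with 0 called in either case.

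**Figure D2:**
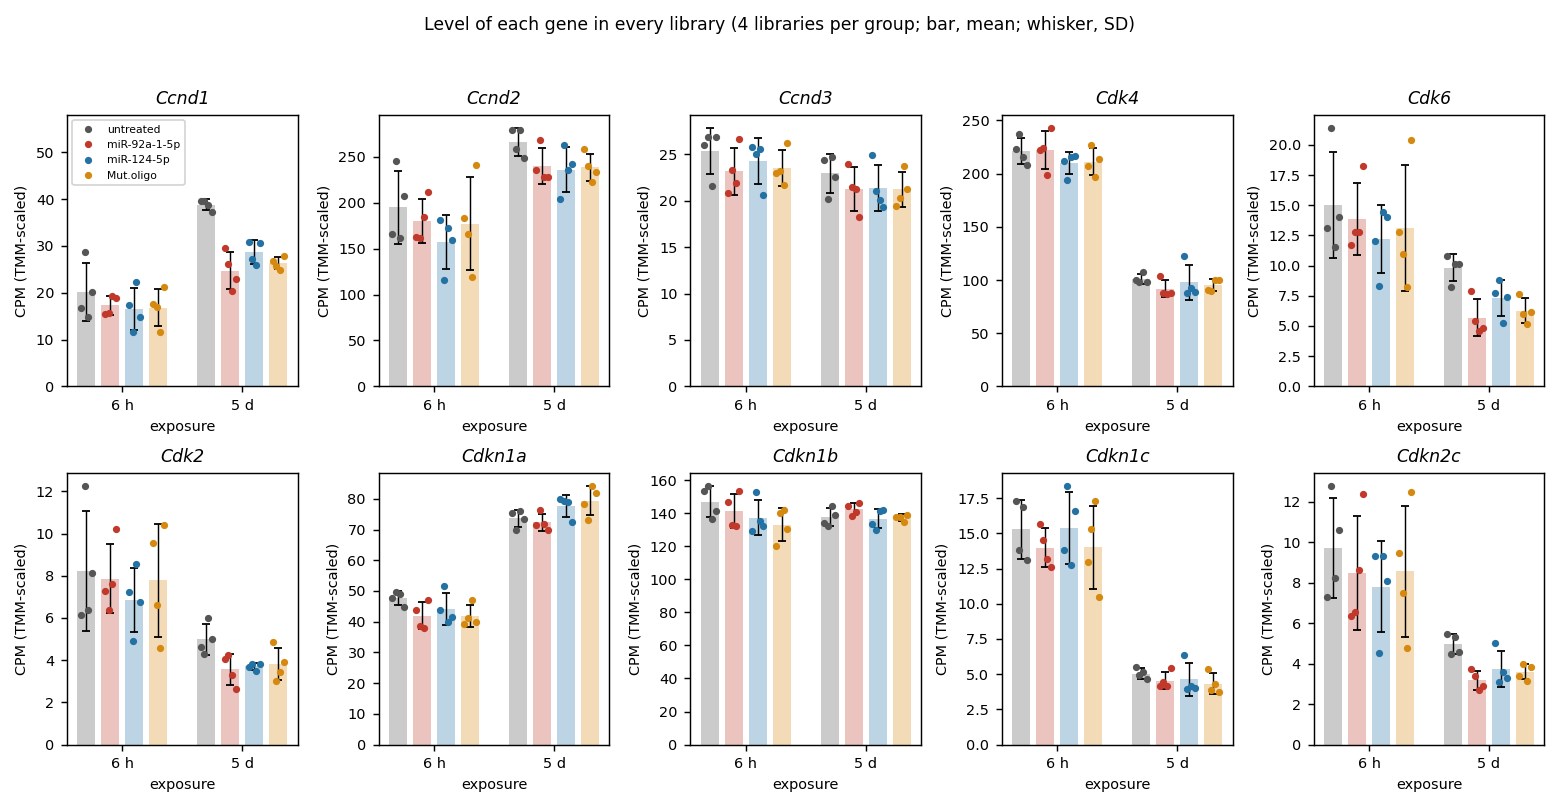
CPM (TMM-scaled, linear axis from 0) of each gene in every library at 6 h and 5 d, with untreated in grey, miR-92a-1-5p in red, miR-124-5p in blue, and Mut.oligo in orange. Points are libraries, bars are means of 4 and whiskers are SDs. At 5 d, the treated Ccnd1 values of 20.4 to 30.9 CPM all lie below the untreated values of 37.1 to 39.7 CPM.

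After exposure for 5 d, every treated library held less Ccnd1 than every untreated library. Ccnd1 (ENSMUSG00000070348, GRCm38 chr7:144929931-144939925, minus strand) encodes cyclin D1, whose level follows growth factor signals in dividing cells. Untreated replicates 1 to 4 held 39.7, 39.6, 38.8 and 37.1 CPM. In the miR-92a-1-5p group, Ccnd1 stood at 29.6, 26.0, 20.4 and 22.9 CPM. After miR-124-5p exposure, it stood at 30.9, 27.3, 25.9 and 30.7 CPM, and after Mut.oligo exposure at 26.8, 25.8, 24.9 and 27.8 CPM. The untreated libraries lay close together, and the lowest of them was above the highest treated one. Without a covariate, the log2 fold change was -0.65 ± 0.0939 after miR-92a-1-5p (0.637-fold of untreated, adjusted p = 0.0483), and Ccnd1 was the 1 gene of 19333 called lower in that comparison. Ccnd1 reached -0.56 ± 0.0935 after Mut.oligo (adjusted p = 0.204) and -0.43 after miR-124-5p exposure (adjusted p = 1.00). The call after miR-92a-1-5p was lost without replicate 2, 3 or 4 of every group (adjusted p = 0.989, 0.845 and 1.00), and when only the 2 groups were fitted (adjusted p = 0.526), with log2 fold changes of -0.57 to -0.66 in these 4 fits.

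Within experiment batches, the differences of Ccnd1 had the same direction. In the 2 batches that hold both groups, the difference of log2 CPM after miR-92a-1-5p was -0.60 and -0.70, and in the 2 such batches of miR-124-5p it was -0.53 and -0.28. The 3 batches of Mut.oligo gave -0.56, -0.62 and -0.43. When the batch was a covariate, Ccnd1 was called after miR-92a-1-5p (-0.68 ± 0.0775, adjusted p = 0.00261) and after Mut.oligo (-0.52 ± 0.0702, adjusted p = 0.0254). After miR-124-5p, the value was -0.45 ± 0.0770 with an adjusted p of 0.0836. DESeq2 with the batch gave the same 2 calls, and -0.45 with an adjusted p of 0.00118 for miR-124-5p, under the fold limit. Ccnd1 made up 15.8 ± 1.91%, 18.2 ± 2.28% and 16.8 ± 0.748% of the D-type cyclin reads per kb with miR-92a-1-5p, with miR-124-5p and with Mut.oligo, compared to 21.1 ± 0.786% in untreated neurons of 5 d.

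The other D-type cyclins were near their untreated level. Ccnd2 held 248.8 to 279.3 CPM in untreated neurons and 204 to 269 CPM in the treated groups, with log2 fold changes of -0.15, -0.17 and -0.16 with miR-92a-1-5p, with miR-124-5p and with Mut.oligo. Ccnd3 held 20.2 to 24.7 CPM in untreated and 18.3 to 24.9 CPM in treated neurons, with log2 fold changes of -0.11, -0.10 and -0.11. The adjusted p was 0.999 or above in all 6 of these comparisons. Ccnd2 had an unadjusted p of 0.0457 after miR-124-5p in edgeR without a covariate. Within experiment batches, Ccnd2 was lower than untreated in every pair, with differences of log2 CPM between -0.13 and -0.05. With the batch as a covariate, the values of Ccnd3 were -0.22, -0.21 and -0.11 (adjusted p = 0.332, 0.838 and 1.00), and those of Ccnd2 were -0.06, -0.08 and -0.11 (adjusted p = 0.700, 1.00 and 1.00).

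Among the kinases, Cdk6 had the largest log2 fold changes at 5 d after miR-92a-1-5p and Mut.oligo. Cdk6 (ENSMUSG00000040274, GRCm38 chr5:3341485-3531008, plus strand) encodes a partner of the D-type cyclins. Untreated replicates held 10.8, 8.20, 10.1 and 10.1 CPM of Cdk6, and those of miR-92a-1-5p 7.92, 5.44, 4.62 and 4.80 CPM. After Mut.oligo exposure, the values were 7.66, 6.03, 5.20 and 6.18 CPM, also below every untreated library. After miR-124-5p exposure, they were 7.69, 8.80, 5.26 and 7.42 CPM, and the highest of these overlapped the untreated range. The log2 fold changes were -0.79 ± 0.177, -0.65 ± 0.175 and -0.42 ± 0.175 for miR-92a-1-5p, Mut.oligo and miR-124-5p, and none passed without a covariate (adjusted p = 0.419, 0.999 and 1.00). With the batch as a covariate, Cdk6 was called after miR-92a-1-5p at -0.85 ± 0.127 (adjusted p = 0.0107) but not after Mut.oligo at -0.56 ± 0.113 (adjusted p = 0.240). DESeq2 with the batch called it after Mut.oligo too (-0.56, adjusted p = 0.0174). Differences within batches were -0.98 and -1.07 for miR-92a-1-5p, while they were -0.29 and -0.45 for miR-124-5p and -0.44 to -0.71 in 3 batches of Mut.oligo. Without replicate 1 of every group, edgeR called Cdk6 for miR-92a-1-5p without a covariate (-0.94, adjusted p = 0.0462). Cdk6 made up 2.21 ± 0.237% of the reads per kb of Cdk4 and Cdk6 together in untreated neurons of 5 d, and 1.41 ± 0.239%, 1.73 ± 0.442% and 1.52 ± 0.309% with miR-92a-1-5p, with miR-124-5p and with Mut.oligo.

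Cdk2 (ENSMUSG00000025358, GRCm38 chr10:128697939-128705031, minus strand), the kinase partner of E-type cyclins, held 4.63, 4.29, 6.02 and 5.02 CPM in untreated neurons at 5 d. It stood at 4.05, 4.25, 3.32 and 2.61 CPM in the miR-92a-1-5p group, and at 3.68, 3.82, 3.49 and 3.84 CPM after miR-124-5p. These 8 libraries lay below the untreated range, whereas the Mut.oligo values of 4.85, 3.04, 3.46 and 3.92 CPM overlapped it. The log2 fold changes were -0.49 ± 0.163, -0.42 ± 0.162 and -0.38 ± 0.161, and no fit called Cdk2 in these comparisons. Cdk4 was close to untreated, with log2 fold changes of -0.14, -0.04 and -0.09 and adjusted p-values of 0.999 or above. With the batch as a covariate, Cdk4 had a value of -0.24 ± 0.0613 after miR-92a-1-5p (adjusted p = 0.141), and in DESeq2 with the batch the adjusted p was 0.0458 at -0.23, under the fold limit.

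Cdkn2c (ENSMUSG00000028551, GRCm38 chr4:109660876-109667189, minus strand), which encodes the INK4 protein p18, had negative log2 fold changes for all 3 oligoribonucleotides at 5 d. It held 5.48, 4.50, 5.30 and 4.59 CPM in untreated neurons and 3.71, 3.37, 2.69 and 2.91 CPM in the miR-92a-1-5p group. Mut.oligo libraries held 3.40, 3.97, 3.16 and 3.83 CPM, and both of these groups lay below the untreated range. The miR-124-5p values of 5.01, 3.08, 3.56 and 3.29 CPM overlapped it. The log2 fold changes were -0.65 ± 0.156, -0.47 ± 0.154 and -0.41 ± 0.154 for miR-92a-1-5p, Mut.oligo and miR-124-5p. Cdkn2c was called with the batch as a covariate after miR-92a-1-5p only (-0.71 ± 0.135, adjusted p = 0.0405), compared to an adjusted p of 0.419 without it. DESeq2 called Cdkn2c and Cdk6 for miR-92a-1-5p with and without the batch.

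The Cip/Kip inhibitors had no called change at 5 d in any fit. Cdkn1a held 69.7 to 76.1 CPM in untreated neurons, 70.0 to 76.2 CPM after miR-92a-1-5p, 72.4 to 80.0 CPM after miR-124-5p, and 73.1 to 84.1 CPM after Mut.oligo exposure. Its log2 fold changes were -0.03, 0.08 and 0.11 in this order. Cdkn1b held 130.1 to 146.4 CPM over all 16 libraries, with log2 fold changes between -0.0049 and 0.05. Cdkn1c was low and uneven, with 3.77 to 6.38 CPM and log2 fold changes of -0.15, -0.12 and -0.22.

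Counted over the 10 genes at 5 d, 4 members lay entirely below the untreated libraries after miR-92a-1-5p (Ccnd1, Cdk6, Cdk2 and Cdkn2c), where 1.71% of all genes tested did so. There were 2 such members after miR-124-5p (Ccnd1 and Cdk2) against 0.947% of all genes, and 3 after Mut.oligo (Ccnd1, Cdk6 and Cdkn2c) against 1.31%. At an unadjusted p under 0.05, 4, 5 and 4 members were lower with miR-92a-1-5p, with miR-124-5p and with Mut.oligo, compared to 2.62%, 1.52% and 1.98% of all genes, and 0 were higher. Calls without a covariate came to 1, 0 and 0 members, where 0.00517%, 0% and 0% of all genes were called lower. DESeq2 without a covariate gave 3, 0 and 1, beside 0.15%, 0% and 0.0155% of genes. With the batch as a covariate, edgeR called 3, 0 and 1, where 0.347%, 0.0259% and 0.0466% of genes were called lower. DESeq2 with the batch gave 3, 0 and 2 members, beside 0.595%, 0.0828% and 0.0879% of genes. The median log2 fold change of the 10 members was -0.15, -0.14 and -0.19, and that of all genes 0.00 in each comparison.

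**Figure D3:**
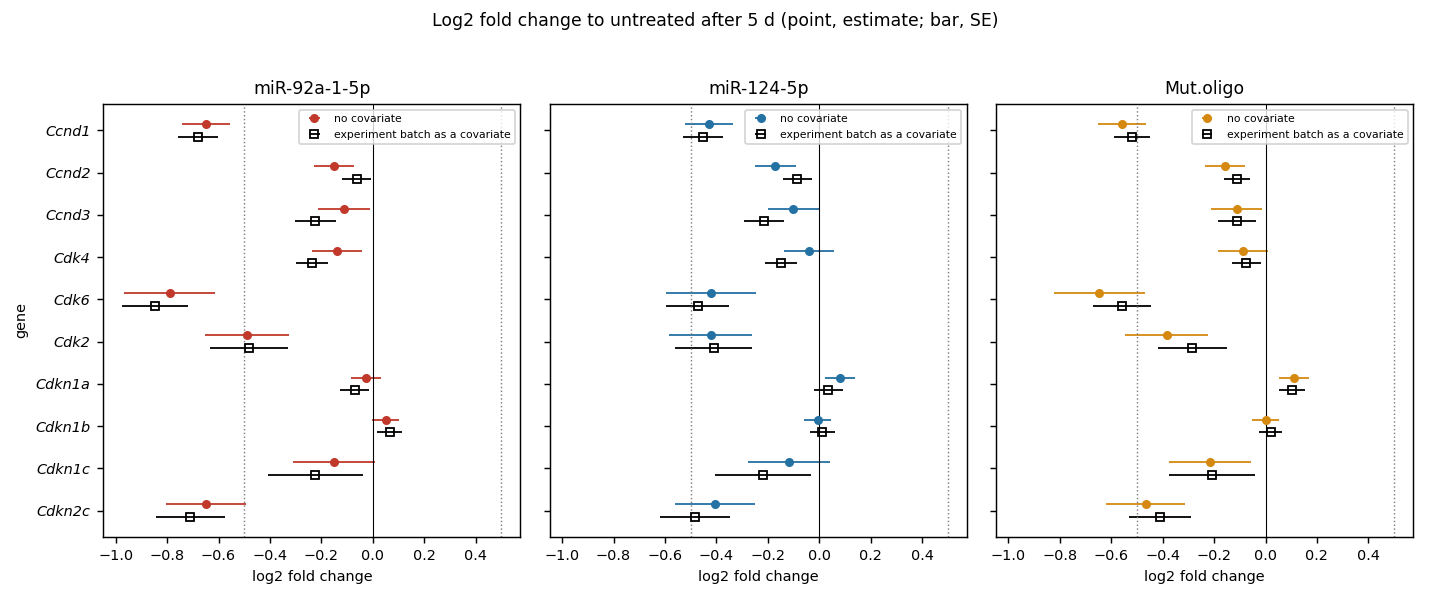
Log2 fold change to untreated at 5 d for each gene and oligoribonucleotide, from edgeR without a covariate (filled circles) or with the experiment batch as covariate (open squares), with SE as bars and dotted lines at the fold limit of 0.5. Ccnd1, Cdk6, Cdk2 and Cdkn2c lie to the left in all 3 panels, and Cdkn1a and Cdkn1b lie near 0.

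**Figure D4:**
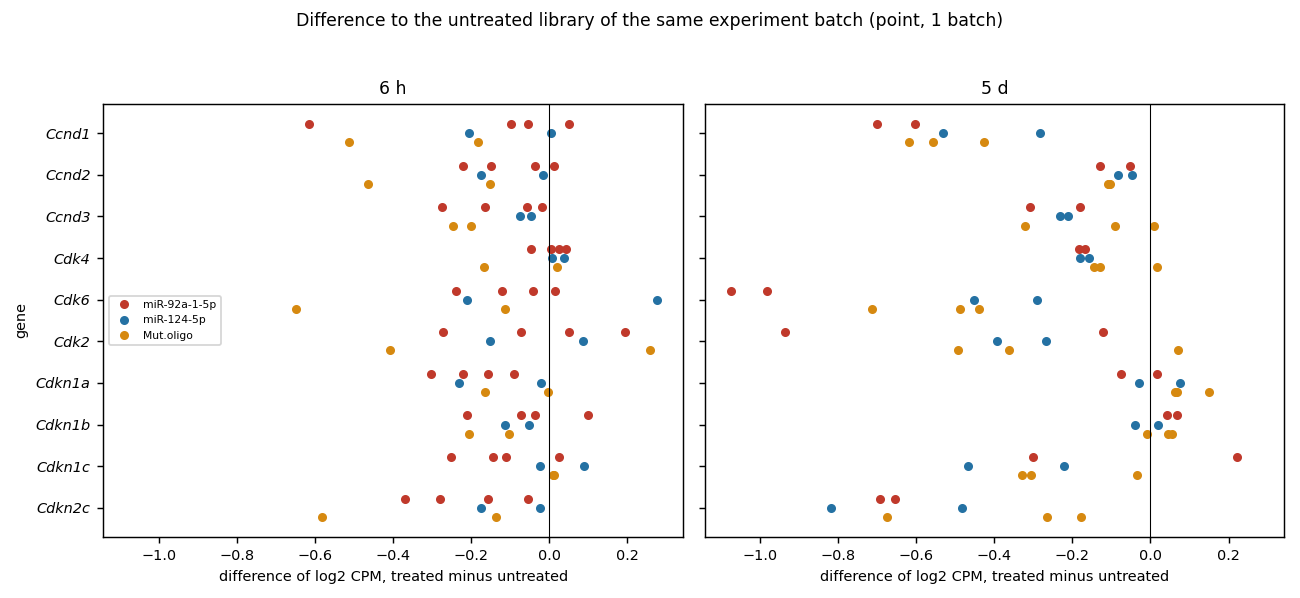
Difference of log2 CPM between a treated library and the untreated library of its experiment batch, with 1 point per batch, at 6 h (left) and 5 d (right). At 5 d, all 7 differences of Ccnd1, Cdk6, Cdkn2c and Ccnd2 lie below 0, with those of Ccnd2 between -0.13 and -0.05.

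The 3 oligoribonucleotides were also compared with each other, at the same dose and time. In all 6 such comparisons (3 at each time point), 0 members were called by edgeR or DESeq2, with or without the batch. Without a covariate, edgeR called 0% of all genes lower in each. With the batch, some genes outside the group had small adjusted p-values at 5 d. The smallest was 0.0180 in edgeR and 3.32e-09 in DESeq2 between miR-92a-1-5p and Mut.oligo. Between the miRNAs, it was 0.0157 and 1.71e-09. At 6 h, the smallest in edgeR with the batch was 0.139 between miR-92a-1-5p and Mut.oligo, and 0.291 between the miRNAs. In DESeq2 with the batch, these were 5.50e-06 and 0.0231. Between miR-124-5p and Mut.oligo at 6 h, the smallest was 0.996 in edgeR and 0.719 in DESeq2. The share of genes called in the fits with the batch was not counted. At 6 h, 0 members had an unadjusted p under 0.05, beside 2.12% of all genes between miR-92a-1-5p and Mut.oligo, 3.58% between miR-124-5p and Mut.oligo, and 2.2% between the miRNAs. When the batch was a covariate, 0, 1 (Ccnd3) and 1 (Cdkn1c) members had such a p in the same order, beside 2.8%, 4.38% and 5.24% of all genes. At 5 d, this held without a covariate for 1, 0 and 1 members, beside 1.98%, 1.68% and 2.29% of all genes. With the batch, it held for 5, 0 and 3 members, beside 8.87%, 2.8% and 7.68% of all genes. The 5 members with lower values after miR-92a-1-5p than after Mut.oligo were Ccnd1 (-0.16), Cdk4 (-0.16), Cdk6 (-0.29), Cdkn2c (-0.30) and Cdkn1a (-0.17), with adjusted p-values from 0.471 to 0.560. The 3 members between the miRNAs were Ccnd1 (-0.23), Cdk6 (-0.38) and Cdkn1a (-0.11), with adjusted p-values from 0.582 to 0.617. Without a covariate, Cdkn1a was lower after miR-92a-1-5p than after Mut.oligo (-0.14 ± 0.0578, unadjusted p = 0.0298), and Ccnd1 was lower after miR-92a-1-5p than after miR-124-5p (-0.22 ± 0.0941, 95% interval -0.42 to -0.02, unadjusted p = 0.0313). Ccnd1 differed by -0.09 between miR-92a-1-5p and Mut.oligo, with a 95% interval from -0.29 to 0.11, and by 0.13 between miR-124-5p and Mut.oligo, with an interval from -0.07 to 0.33. For Cdk6, these differences were -0.14 (interval -0.52 to 0.23) and 0.23 (interval -0.15 to 0.60). These 4 intervals include differences in either direction.

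The effect at 5 d was also set against the effect at 6 h in 1 fit of all 32 libraries. With edgeR and no covariate, 0 members and 0% of 20425 genes were called for each of the 3 oligoribonucleotides. At an unadjusted p under 0.05, there was 1 member for miR-92a-1-5p, 0 for miR-124-5p and 1 for Mut.oligo, beside 3.92%, 2.64% and 5.55% of all genes. With the batch as a covariate, 5 members had such a p and a lower effect of miR-92a-1-5p at 5 d (Ccnd1, Cdk4, Cdk6, Cdk2 and Cdkn2c, -0.24 to -0.74), 0 for miR-124-5p, and 2 a higher effect of Mut.oligo (Cdkn1a and Cdkn1b), beside 10.8%, 3.66% and 4.46% of all genes, and 0 of them were called by edgeR. Cdk6 had an effect of miR-92a-1-5p that differed at 5 d by -0.68 ± 0.321 (unadjusted p = 0.0426), and DESeq2 with the batch called this difference (-0.74 ± 0.205, adjusted p = 0.0260). In that DESeq2 fit, 1957 of 20425 genes had an unadjusted p under 0.05, and the smallest adjusted p was 9.85e-14. The share of genes called in it was not counted. Cdkn1a had an effect of Mut.oligo that differed at 5 d by 0.30 ± 0.103 (unadjusted p = 0.00727, adjusted p = 0.857). For Ccnd1, the differences were -0.43 ± 0.238, -0.15 ± 0.239 and -0.30 ± 0.240 for miR-92a-1-5p, for miR-124-5p and for Mut.oligo.

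Downstream of these kinases, a list of 18 E2F target genes of DNA replication and division was read from the same fits. Without a covariate, 0 of 18 were called at 5 d. At an unadjusted p under 0.05, 16, 11 and 12 were lower with miR-92a-1-5p, with miR-124-5p and with Mut.oligo, and 0 were higher. Of all genes tested, 2.62%, 1.52% and 1.98% were lower at such a p. The median log2 fold changes of the 18 genes were -0.59, -0.39 and -0.35. With the batch as a covariate, 9, 1 and 1 of 18 were called lower, beside 0.347%, 0.0259% and 0.0466% of all genes. Pclaf, a PCNA-binding factor of replicating cells, was called with the batch for all 3, at -1.31 ± 0.121, -1.04 ± 0.118 and -0.72 ± 0.106 (adjusted p = 0.000636, 0.00673 and 0.0315). After miR-92a-1-5p, Ccna2, which encodes the S-phase cyclin A2, had a value of -0.95, Uhrf1, a factor of maintenance methylation, -0.99, and Top2a, a topoisomerase of dividing cells, -0.93 (adjusted p = 0.00228, 0.00525 and 0.00525). At 6 h, 0 of 18 were called, and the medians were -0.08, -0.29 and -0.12. In untreated neurons, 18 of 18 were called lower at 5 d than at 6 h, beside 14.3% of all genes. The 18 genes had a median of -1.20 and included Pcna (-0.65), Mcm5 (-1.52), Cdk1 (-1.71) and Rrm2 (-1.12).

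Of 25 further genes of the G1/S transition, among them E-type cyclins, retinoblastoma proteins, E2F factors and Cdc25a, 0 were called at either time point for any oligoribonucleotide, with or without the batch. At 5 d, 5, 4 and 3 of 25 were lower at an unadjusted p under 0.05 with miR-92a-1-5p, with miR-124-5p and with Mut.oligo. Of all genes tested, 2.62%, 1.52% and 1.98% were lower at such a p. The medians of the 25 genes were -0.08, -0.07 and -0.10. At 5 d compared to 6 h in untreated neurons, 14.3% of all genes were called lower and 19.1% higher. Of the 25 genes, 10 were called lower and 3 higher. Those with the smallest p were Cdc25a, a phosphatase that activates CDK2 (-1.12), Cks1b, a CDK-binding subunit (-1.04), E2f7, a repressor E2F (-1.69), and Skp2, which directs p27 to degradation (-0.92). Of 12 p53 targets other than Cdkn1a, 0 were called for any oligoribonucleotide, and the medians at 5 d were -0.04, 0.04 and -0.03. Over time in untreated neurons, 8 of 12 were called higher together with Cdkn1a, beside 19.1% of all genes. Among these 8, Sesn2 (1.77), Ccng1 (1.08), Eda2r (1.82) and Zmat3 (0.63) had the smallest p.

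**Figure D5:**
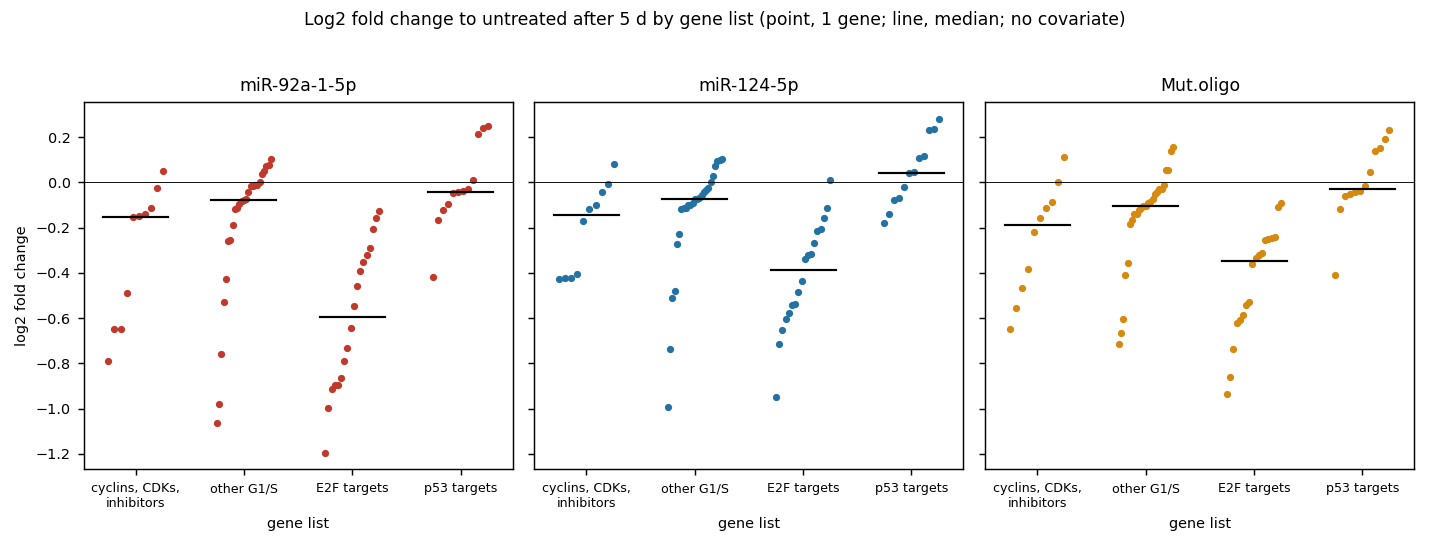
Log2 fold change to untreated at 5 d (edgeR without a covariate) for the 10 cyclins, CDKs and inhibitors, 25 other G1/S genes, 18 E2F targets and 12 p53 targets, with 1 point per gene and a line at the median. The medians of the E2F targets are -0.59, -0.39 and -0.35 for miR-92a-1-5p, for miR-124-5p and for Mut.oligo.

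The genes whose pattern over the 16 libraries of 5 d was most like that of Ccnd1 were Dlgap5, Pclaf, Bub1b, Top2a and Uhrf1, with Pearson correlations of log2 CPM of 0.943, 0.919, 0.918, 0.914 and 0.910. Dlgap5 and Bub1b encode proteins of mitosis. Among Ccnd1, Cdk6, Cdk2 and Cdkn2c themselves, the correlations at 5 d lay between 0.612 (Cdk2 and Cdkn2c) and 0.883 (Ccnd1 and Cdk6). The libraries share the untreated and treated groups and the batches, and the values are a description.

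Markers of the cell types that such cultures can hold were read beside these results. The 6 neuronal markers, among them Tubb3 and Map2, were above 3 counts in every library. Fold changes and calls of the markers were read only from edgeR without a covariate. Markers of the oligodendrocyte lineage (Pdgfra, Cspg4, Olig1, Olig2, Sox10 and Gpr17), whose precursors divide, had negative log2 fold changes in 6 of 6 genes for each oligoribonucleotide at 5 d. The medians were -0.85, -0.63 and -0.80. Of these markers, 0 were called, in fits that called 0.00517%, 0% and 0% of all genes lower. The summed level of these markers was 140.5 to 173 CPM in untreated neurons, 60.0 to 136 CPM after miR-92a-1-5p, 86.9 to 152 CPM after miR-124-5p, and 96.8 to 112 CPM after Mut.oligo exposure. The untreated range did not overlap those of miR-92a-1-5p and Mut.oligo, but overlapped that of miR-124-5p. At 6 h, the sums overlapped, with 125 to 259 CPM in untreated and 83.8 to 259 CPM in treated libraries. Markers of astrocytes and radial glia summed to 1730 to 2492 CPM in untreated neurons of 5 d and to 1570 to 2256 CPM in treated ones, with 4, 4 and 6 of 6 genes below 0. The same list summed to 663 to 1149 CPM in untreated neurons of 6 h. Of its genes, 5 of 6 were called higher at 5 d, beside 19.1% of all genes. Microglial markers summed to 7.63 to 16.2 CPM at 5 d. Endothelial markers summed to 5.90 to 11.1 CPM in untreated and 3.41 to 6.39 CPM in treated neurons of 5 d, and those of mural cells and fibroblasts to 43.9 to 79.6 and 32.7 to 63.6 CPM. Log2 fold changes were negative in 5, 2 and 4 of 6 endothelial markers with miR-92a-1-5p, with miR-124-5p and with Mut.oligo, with medians of -0.21, 0.17 and -0.08. For mural cells and fibroblasts, 4, 5 and 6 of 6 were negative. In untreated neurons of 5 d, the mean level of the microglial marker P2ry12 was 0.214 CPM, while C1qa held at least 3.39 CPM in each library. That of endothelial markers reached from 0.0490 CPM for Cldn5 to 5.86 CPM for Kdr. The part of these cell types in the lower levels of Ccnd1, Cdk6, Cdk2, Cdkn2c and the E2F targets was not tested.

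Since E2F factors bind promoters of many genes of this pathway, the 250 bases before the start of each gene were searched for E2F motifs on both strands, written as TTTCCCGC, TTTCGCGC, TTTGCCGC and TTTGGCGC. RefSeq promoters (GRCm38.p6) were at hand for 7 of the 10 members, with more than 1 promoter each for Ccnd3, Cdkn1a and Cdkn2c. Of these members, 1, Cdk2, had a promoter with a match. Counted over promoters rather than genes, 611 of 32851 (1.86%) held a match. The match starts 140 bases before the RefSeq start of Cdk2 on its own strand, in the opposite orientation. This start differs from that of the gene coordinates given above. The match is shown in capitals at chr10:128705173-128705201 (minus strand).

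Cdk2: accaggaactGCGGGAAAgttgtgcagct

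The promoters of Ccnd3, Cdk4, Cdk6, Cdkn1a, Cdkn1b and Cdkn2c held 0 matches in this window.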

How the data were processed

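Poly(A) RNA of 32 libraries was sequenced by the authors as stranded single-end reads. Per the submitters' processing notes and the methods, reads were aligned to GRCm38 with STAR and counted per gene on exons, with strand, by featureCounts (Subread). The deposited table holds these raw counts of 49671 genes, and 0 of its columns were left unused. Groups came from the labels.

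The members, the lists and the rule for named genes (all members, up to 4 genes of a list per comparison with the smallest p among those called, and the 5 genes most correlated with Ccnd1) were chosen with earlier results of these data known. Genes that reached 5 counts in 3 or more libraries were fitted in edgeR 4.0.16 (R 4.3.3; TMM; quasi-likelihood test; no covariate, since the methods of the study name none for their DESeq2 test), with the 16 libraries of a time point together, or all 32 for the change over time and its interaction. P-values were adjusted over all genes tested. DESeq2 1.42.0 and the experiment batch as a covariate were alternatives. At 5 d, 3 of the 6 batches hold no pair with an untreated library and add nothing directly to its contrast. Log2 CPM used a prior count of 2. Levels per kb used the union of exons in GENCODE M21, not the release used for counting. None of the 48 pairs of replicates agreed within sampling noise (chi-square per degree of freedom 7.13 to 111). A floor of 3 counts is 0.0407 to 0.122 CPM and covers counting error only. The scripts were tested on simulated data. Protein sequences and the sequences of the other oligoribonucleotides were not used here. Seed matches in 3′ UTRs are not reported here.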

Additional observations from a re-analysis of the deposited data

Results flagged for a closer look

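The 4 libraries of each group were examined for values far from the other 3, gene by gene, and 7 of 80 combinations of gene and group were marked, where chance marks about 1 in 20. Ccnd3 stood at 21.6 CPM in untreated replicate 3 of 6 h (other libraries 26.0 to 26.9 CPM) and at 20.6 CPM in miR-124-5p replicate 4 of 6 h (others 25.1 to 25.7 CPM), and both libraries belong to the same experiment batch. Cdk4 stood at 103.9 CPM in miR-92a-1-5p replicate 1 of 5 d (the next library 88.2 CPM) and at 122.2 CPM in miR-124-5p replicate 1 of 5 d (the next library 92.3 CPM), and these libraries share a batch that holds no untreated library. Cdkn1c was 6.38 CPM in the same miR-124-5p library, compared to 3.96 to 4.17 CPM in the others. Cdk6 reached 18.3 CPM in miR-92a-1-5p replicate 4 of 6 h (others 11.7 to 12.8 CPM), which shares its batch with the highest untreated library of that time point, at 21.4 CPM. Cdkn1a was 72.4 CPM in miR-124-5p replicate 4 of 5 d, compared to 79.0 to 80.0 CPM in the others. The part of the batches in these values was not tested.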

How the results depend on the processing

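For miR-92a-1-5p at 5 d, 1 member was called without a covariate, 3 with the experiment batch, 3 with DESeq2, 3 with DESeq2 and the batch, 0 with only the 2 groups compared, and 0 to 2 when leaving out a replicate of every group. For Mut.oligo at 5 d, 0 members were called without a covariate, 1 with the experiment batch, 1 with DESeq2, 2 with DESeq2 and the batch, 1 with only the 2 groups compared, and 1 with only the batches that hold an untreated library, an alternative chosen after seeing the data. For the effect of miR-92a-1-5p at 5 d minus that at 6 h, 1 member (Cdk6) was called with DESeq2 and the batch and 0 otherwise. In the other 200 settings of the 16 counts, the number of called members stayed within 1.5 times the first value. Without replicate 2 of every group, the members with a negative log2 fold change at 6 h fell from 9, 9 and 10 to 3, 6 and 6 of 10, none of them called. For 6 of those that changed sign, a value exceeded its SE. Over the replicates left out, Ccnd1 ranged from -0.40 to 0.048 and Cdk2 from -0.21 to 0.29 for miR-92a-1-5p. For miR-124-5p, Ccnd1 ranged from -0.57 to 0.073, Cdk6 from -0.49 to 0.066 and Cdkn2c from -0.52 to 0.031, and Cdk2 ranged from -0.28 to 0.28 for Mut.oligo. The cause was not tested. The replicate numbers mark batches only in part. At 5 d, replicate 4 of every group came from 1 batch, and replicate 3 of every oligoribonucleotide from another. Same-numbered libraries of different groups had correlations of deviations between -0.22 and 0.42 at 5 d (median 0.11). At 6 h, these lay between -0.26 and 0.31 (median -0.05). Libraries of the same batch had 0.07 to 0.42 at 5 d (median 0.19) and 0.06 to 0.39 at 6 h (median 0.28). With the replicate block, 1 member was called for miR-92a-1-5p at 5 d, as without it, and 0 in the other comparisons it was run for. RLE size factors and both filters on low counts changed no count of called members. CPM on library totals were 0.985 to 1.02 times the TMM-scaled group means. For Cdk6 and Cdk2 at 5 d, the miR-92a-1-5p and untreated ranges overlapped on library totals but not with TMM scaling.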
